A study of Mus musculus with 9 samples.

Results

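The 9 genes described here mark the path from an early lymphoid progenitor to a B cell, and they were followed across 3 kinds of bone marrow LSK cells. They were chosen by name, with earlier results of these data known. The lymphoid priming genes were Dntt, Rag1 and Il7r, and the committed B cell genes were Ebf1, Pax5, Cd79a, Cd79b, Ms4a1 and Vpreb1. Of the 9 genes, 8 were in the deposited table of 14461 genes and 7 passed the filter on low values that left 13771 genes for testing. The RNA of Rag1 was not analysed here, and Pax5 was too low to be tested.

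LSK cells are bone marrow cells that lack the markers of mature lineages and carry Sca-1 and c-Kit on their surface, a gate that holds the blood stem cells and the multipotent progenitors. Here they were sorted from parabiotic mice, pairs joined so that they share a blood circulation, in a series that asked how LSK cells that had moved through the blood into the marrow of an irradiated partner differ in their RNA. The circulating group held 3 libraries labelled as strain C57BL/6. The irradiated group held 3 libraries with the same strain label. The endogenous group held 3 libraries labelled as strain B6SJL CD45.1. The labels give no radiation dose, age or time in parabiosis. Whether each library stands for its own animal is not stated either, so a p-value measures only the spread between these libraries, which may be technical. The strain label changed with the group in both comparisons against endogenous cells, and the 2 cannot be told apart there. Whether that label names the sorted cells or the mouse whose marrow was taken was not tested. Circulating and endogenous titles share a code, LSK1, irradiated titles carry LSK2, and the labels do not explain the code.

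In the bone marrow, multipotent progenitors that turn on Flt3 and Il7r begin to open the lymphoid program. Terminal deoxynucleotidyl transferase (Dntt) and the recombinase made of RAG1 and RAG2 are among the first lymphoid products. Commitment to the B lineage follows when EBF1, and then PAX5, switch on the genes of the pre-B cell receptor and the B cell receptor. LSK cells are upstream of that commitment, so committed B cell genes are usually low in them. In bulk RNA, fewer cells of a type and less RNA per cell cannot be told apart.

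Values are the deposited normalised signal, in which a library sums to 913996 to 1134420. Estimated counts recovered from it totalled 14065855 to 27012345 per library, with circulating library 2 the shallowest. Libraries are named by group and replicate number, and values are listed in the order 1, 2, 3. A gene counts as changed when the Benjamini-Hochberg adjusted p of limma on log2(value + 1) was under 0.05 over all genes tested. Positive log2 differences mean higher in the group named first. The gate's own genes were present in every library. Kit, the gene of c-Kit, had 327, 401 and 409.9 in circulating, 576, 562 and 622 in irradiated and 887, 1011 and 737 in endogenous libraries. Kit was lower in circulating than in endogenous cells, with a log2 difference of -1.20 (adjusted p = 0.00257). Ly6a, the gene of Sca-1, ran from 127 to 202 and the pan-leukocyte gene Ptprc from 449.7 to 651 over the 9 libraries.

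Compared with endogenous cells, circulating cells had more RNA of Cd79a, one of the 7 genes tested, and none of the 7 was called lower. Over all genes tested, 8.63% were called in that comparison, 5.33% higher and 3.3% lower in circulating cells. Cd79a makes 1 of 7 genes (14.3%), a share that rests on a single gene. Circulating against irradiated cells gave no call among the 7, with 0.029% of all genes called (0.0218% higher and 0.00726% lower). Irradiated against endogenous cells also gave none, with 0.603% of all genes called (0.472% higher and 0.131% lower). At an unadjusted p under 0.05, limma passed 2, 3 and 0 of the 7 genes in these comparisons, in the order given, beside 26.7%, 11.4% and 14.9% of all genes tested. Limma-voom on the recovered counts called 0 of the 7 in each, beside 834, 8 and 94 of all 13771 genes.

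**Figure D1:**
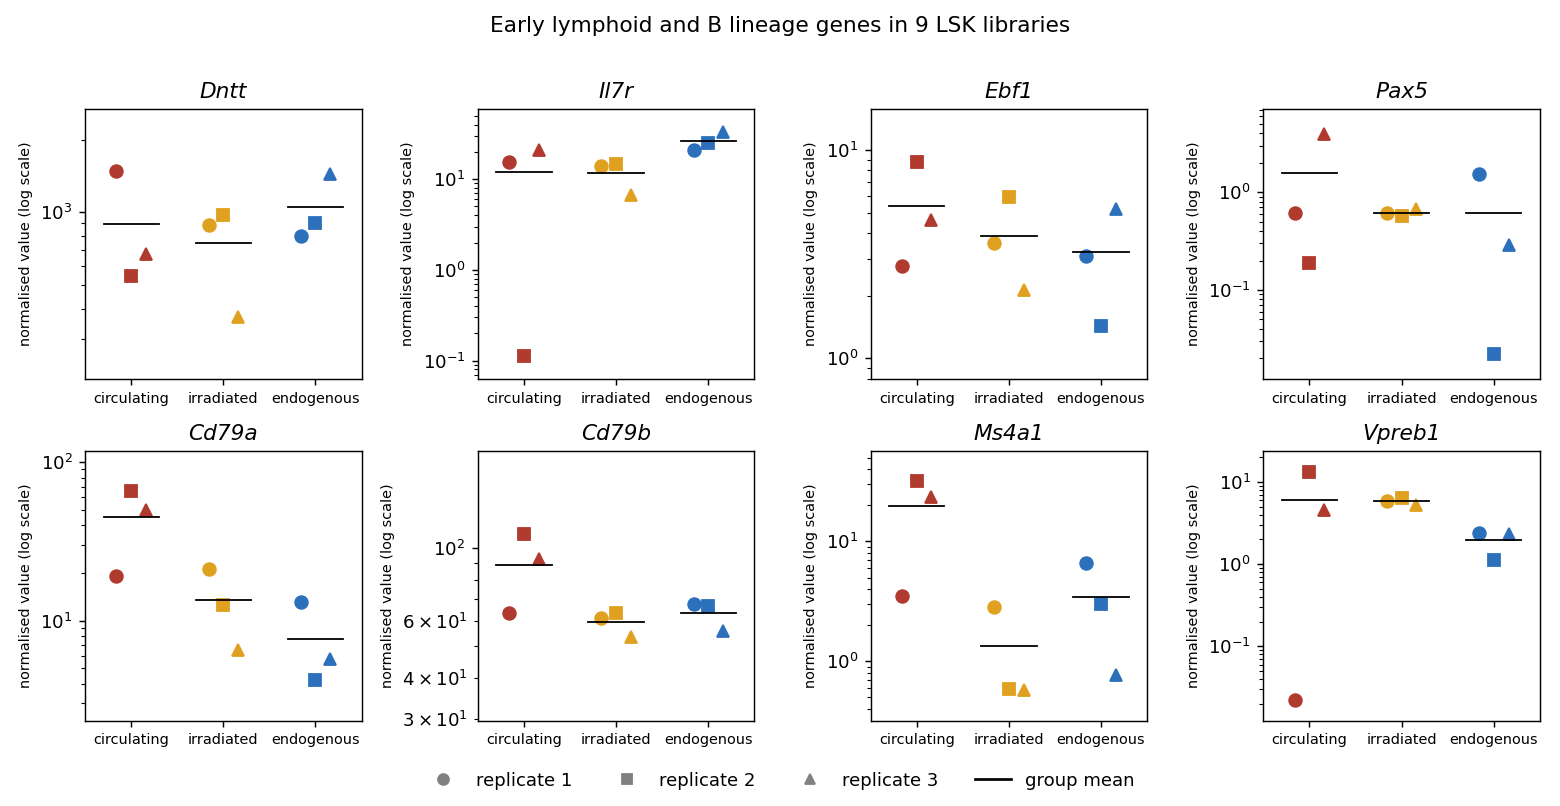
Normalised value (log axis) of the 8 genes in the table in each library, by group, with marker shapes for the replicate numbers and a black line at the group mean. Dntt is high in all 9 libraries, while Cd79a and Ms4a1 are highest in circulating libraries 2 and 3.

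Dntt, the polymerase that adds untemplated bases at the joints of rearranging antigen receptor genes, was by far the most abundant of the 8 genes. It lies at chr19:41029275-41059525 on the plus strand (GRCm38, GENCODE M21). Its normalised values were 1484, 545 and 671 in circulating, 890.4, 978 and 369 in irradiated and 801, 905 and 1442 in endogenous libraries. The 3 groups overlapped: the highest library was circulating 1 and the lowest irradiated 3. Group means were 899.7 ± 509.6, 746 ± 329 and 1049 ± 344 (SD, n = 3 each). The log2 difference of circulating from endogenous cells was -0.32 (95% interval -1.35 to 0.72, adjusted p = 0.697), so a change of about 1 log2 unit in the lower direction lies inside the interval. Against irradiated cells the difference was 0.25 (adjusted p = 0.873), and irradiated differed from endogenous cells by -0.57 (adjusted p = 0.63).

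Because Dntt carries most of the signal of the 9 genes, the stretch just before its start is shown, from RefSeq (GRCm38.p6, chr19:41029025-41029274, plus strand, 250 bases, 5′ to 3′). It holds none of the motifs searched, which are given below with Cd79a, so no base is in capitals. Among the other windows searched, that of the priming gene Rag1 held CAGGTG and CAGCTG. Those of Il7r and of the committed genes Ebf1 and Pax5 held none.
Dntt: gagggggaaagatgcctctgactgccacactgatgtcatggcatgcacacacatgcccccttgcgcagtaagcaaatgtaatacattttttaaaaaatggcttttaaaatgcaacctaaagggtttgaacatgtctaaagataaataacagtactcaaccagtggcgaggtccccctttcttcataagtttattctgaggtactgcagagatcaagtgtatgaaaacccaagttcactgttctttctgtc

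Il7r encodes the receptor chain through which interleukin 7 supports early lymphocytes (chr15:9505788-9530176, minus strand). Its values were 15.4, 0.113 and 20.9 in circulating, 14.0, 14.8 and 6.66 in irradiated and 21.2, 24.8 and 32.8 in endogenous libraries. Every endogenous library was above every circulating and every irradiated library, and circulating library 2 held a single estimated count. Means were 12.1 ± 10.8, 11.8 ± 4.50 and 26.3 ± 5.96 (SD, n = 3 each). The log2 difference of circulating from endogenous cells was -1.87 (95% interval -3.80 to 0.07, adjusted p = 0.203), and it was -0.51 without circulating library 2. Irradiated cells differed from endogenous cells by -1.14 (adjusted p = 0.608) and circulating from irradiated cells by -0.73 (adjusted p = 0.784).

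Rag2, the partner of Rag1 in the recombinase, was in the table and is given in its place, although it is not one of the 9 genes. Its values were 39.6, 33.3 and 39.7 in circulating, 37.2, 25.9 and 14.2 in irradiated and 23.2, 22.8 and 31.8 in endogenous libraries. Irradiated library 1 lay among the circulating libraries and all others were lower, and circulating against endogenous cells differed by 0.53 (adjusted p = 0.306). The exons of Rag2 overlap those of B230118H07Rik on the other strand, and these libraries do not mark strand, so its level is uncertain. Dntt and Rag2 were thus both present in all 9 libraries, while neither priming gene in the table was called in any comparison.

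Ebf1, the transcription factor that starts the B cell program (chr11:44617317-45008091, plus strand), was low. Its values were 2.78, 8.73 and 4.61 in circulating, 3.57, 5.96 and 2.12 in irradiated and 3.12, 1.43 and 5.20 in endogenous libraries. All 3 groups overlapped, with the highest value in circulating library 2. Circulating and endogenous cells differed by 0.58 (95% interval -0.50 to 1.65, adjusted p = 0.483).

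Pax5, which holds B cells to their fate (chr4:44524757-44710487, minus strand), was near the floor. Its values were 0.617, 0.188 and 3.94 in circulating, 0.606, 0.567 and 0.676 in irradiated and 1.54, 0.0221 and 0.290 in endogenous libraries. Circulating library 3 held 69 estimated counts, endogenous library 2 held 0, and no group was apart from the others. Pax5 reached a value of 1 in too few libraries to be tested, and part of its exons overlap Gm12462 and 5730488B01Rik on the other strand.

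Cd79a encodes the immunoglobulin alpha chain, the signalling partner of the pre-B cell and B cell receptors (chr7:24897381-24902197, plus strand). Its values were 19.1, 65.8 and 49.7 in circulating, 21.3, 12.5 and 6.50 in irradiated and 13.2, 4.21 and 5.70 in endogenous libraries. All 3 circulating libraries were above all 3 endogenous ones, while circulating library 1 was below irradiated library 1. Means were 44.8 ± 23.7, 13.5 ± 7.46 and 7.70 ± 4.80 (SD, n = 3 each). Circulating cells were higher than endogenous cells by 2.37 on the log2 scale (SE 0.54, 95% interval 1.18 to 3.55, adjusted p = 0.0262). Against irradiated cells the difference was 1.64 (95% interval 0.45 to 2.82, adjusted p = 0.322), and irradiated exceeded endogenous cells by 0.73 (adjusted p = 0.587). The call against endogenous cells was lost when any 1 of circulating library 2 (adjusted p = 0.0562), circulating library 3 (0.0729), endogenous library 2 (0.0877) or endogenous library 3 (0.0783) was left out, with the difference between 2.01 and 2.88 over all alternatives.

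The promoter of Cd79a is shown because Cd79a was the gene that passed, and because EBF1 is known from earlier work to act on it directly. The stretch is from RefSeq (GRCm38.p6, chr7:24897247-24897380, plus strand, 134 bases, 5′ to 3′) and ends where the annotated exons of any transcript begin. Capitals mark CTCAAGGG, the run in which EBF1 is known to bind this promoter, 176 bases before the RefSeq start, and the E-box CAGGTG, a sequence of the kind bound by E proteins, 154 bases before it.
Cd79a: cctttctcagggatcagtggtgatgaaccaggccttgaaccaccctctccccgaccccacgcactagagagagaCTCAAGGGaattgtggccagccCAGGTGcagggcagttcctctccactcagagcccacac
On both strands of 32851 promoter windows of 250 bases, CTCAAGGG matched in 1.01% and CAGGTG in 17.2%. The E-box CAGCTG matched in 13% and the palindromic EBF core CCCNNGGG in 11.8%, and neither was in the stretch printed. The run CTCAAGGG was chosen after reading the sequence. A match describes these letters only, and the transcription factor itself, Ebf1, did not pass the test in any comparison.

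Cd79b encodes the immunoglobulin beta chain that pairs with Cd79a (chr11:106311341-106314762, minus strand). Its values were 63.2, 111 and 92.4 in circulating, 61.1, 63.3 and 53.3 in irradiated and 67.4, 66.6 and 55.9 in endogenous libraries. Circulating libraries 2 and 3 were above every library of the other groups, and circulating library 1 lay among them. Circulating against endogenous cells differed by 0.45 (95% interval 0.00 to 0.90, adjusted p = 0.189) and against irradiated cells by 0.54 (adjusted p = 0.373). The partner chains therefore differed in their spread, with Cd79b above 50 in all 9 libraries and Cd79a under 10 in 3 of them.

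Ms4a1, the gene of the mature B cell surface protein CD20 (chr19:11249675-11266241, minus strand), showed the same order of circulating libraries. Its values were 3.48, 31.9 and 23.7 in circulating, 2.84, 0.583 and 0.575 in irradiated and 6.59, 2.99 and 0.774 in endogenous libraries. Every circulating library was above every irradiated library, but circulating library 1 was below endogenous library 1. Circulating cells differed from irradiated cells by 2.86 (95% interval 1.20 to 4.52, adjusted p = 0.246) and from endogenous cells by 2.03 (95% interval 0.37 to 3.69, adjusted p = 0.117).

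Vpreb1 encodes a part of the surrogate light chain of the pre-B cell receptor (chr16:16868403-16870843, minus strand). Its values were 0.0226, 13.3 and 4.62 in circulating, 5.86, 6.45 and 5.26 in irradiated and 2.42, 1.13 and 2.31 in endogenous libraries. The 0.0226 of circulating library 1 is 0 estimated counts, which allows up to 0.136 at the limit of 3 counts, a bound on counting error only. The irradiated libraries lay close together and above all 3 endogenous libraries, a difference of 1.24 (95% interval -0.38 to 2.87, adjusted p = 0.481). Circulating libraries spanned the lowest and the highest of the 9 values, and their difference from endogenous cells was 0.59 (adjusted p = 0.645). An exon of Vpreb1 overlaps Top3b on the other strand, so its level is uncertain. Igll1, the partner of Vpreb1 in the surrogate light chain, had 0.0226, 21.6 and 11.6 in circulating, 7.45, 11.6 and 11.2 in irradiated and 6.48, 1.39 and 3.73 in endogenous libraries, and it too was at 0 estimated counts in circulating library 1.

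**Figure D2:**
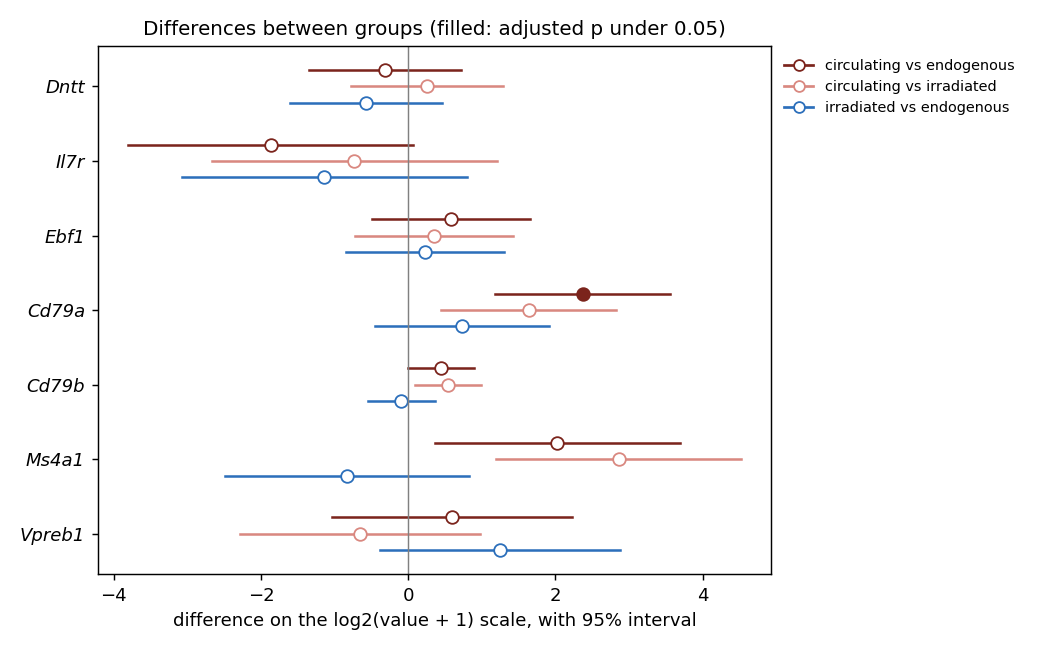
Log2 difference of the 7 tested genes in each of the 3 comparisons, with 95% intervals from limma; filled points passed the adjusted p threshold. Only Cd79a in circulating against endogenous cells, at 2.37, is filled, and the intervals of Il7r, Ms4a1 and Vpreb1 are the widest.

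The 7 genes were also compared by whether the libraries of 2 groups overlapped at all. In circulating against endogenous cells 2 of 7 (28.6%) did not overlap, Cd79a higher and Il7r lower, beside 27.5% of all genes tested. In circulating against irradiated cells it was Ms4a1 alone (14.3%), beside 16.7%. In irradiated against endogenous cells it was Il7r, lower, and Vpreb1, higher (28.6%), beside 27.7%. These shares are near the background and are no result about the 7 genes.

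By level per kilobase of exon, averaged over the 9 libraries, the order was Dntt at 392, Cd79b at 49.2, Cd79a at 15.1, Vpreb1 at 3.84, Il7r at 3.59, Ms4a1 at 1.32, Ebf1 at 0.427 and Pax5 at 0.106. Cd79a moved within that order between groups, from 30.8 in circulating to 9.23 in irradiated and 5.28 in endogenous cells. Per kilobase, Il7r was at 2.6, 2.54 and 5.64 and Vpreb1 at 5, 4.88 and 1.63 in the same groups. The levels of Il7r and Cd79a, neighbours in endogenous cells, overlapped there between libraries, while Dntt and Cd79b kept their places in every library.

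The spread inside the circulating group followed the libraries. All 6 committed genes had their highest value in a circulating library, 5 of them in library 2 and Pax5 in library 3. How often genes at large were highest in each library was not counted. Such counts, here and for the marker lists below, therefore have no background. Circulating library 2 was also the shallowest, with 560 genes at 0 estimated counts against 15 to 206 in the others. The summed normalised value of the 6 was 89.2, 230.4 and 179 in circulating, 95.3, 89.4 and 68.5 in irradiated and 94.2, 76.4 and 70.2 in endogenous libraries. Circulating library 1 thus lay inside the range of the other groups, and libraries 2 and 3 above it. Dntt ran the other way inside that group, highest in library 1, while Il7r was highest in library 3 and lowest in library 2. When circulating library 1 was left out, 4 of the 7 genes passed against endogenous cells: Cd79a, Cd79b (0.67, adjusted p = 0.0278), Ms4a1 (2.92, adjusted p = 0.0125) and Vpreb1 (1.64, adjusted p = 0.0353). All 4 were higher in circulating cells, and the same fit called 1198 of 13660 genes higher (8.77%) and 2230 in either direction. Ms4a1 then also passed against irradiated cells (3.75, adjusted p = 0.0358), where 0.498% of all genes were called higher and 134 genes in either direction. These counts rest on which circulating library is kept, and the text above keeps all 3.

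**Figure D3:**
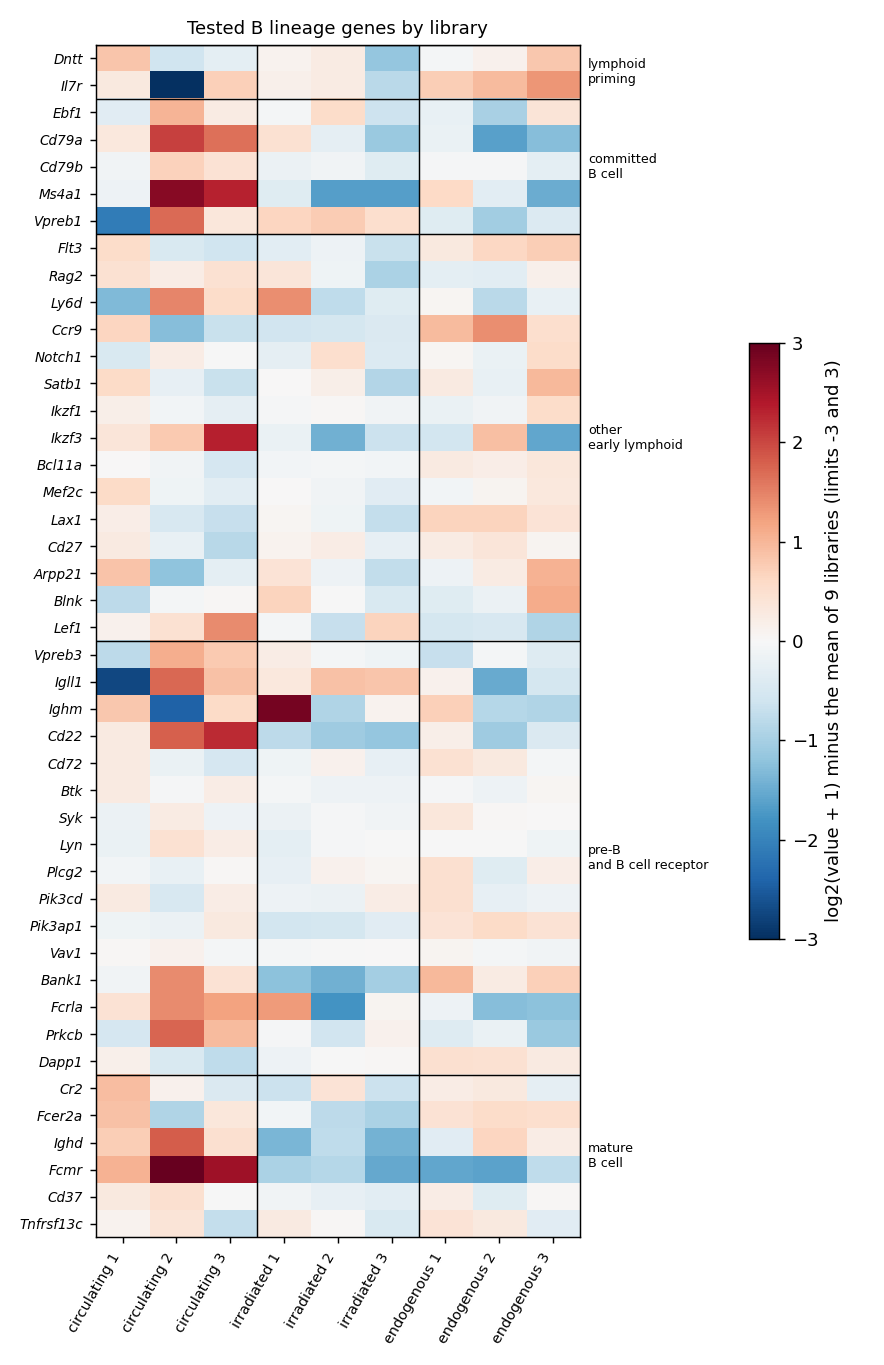
Log2(value + 1) minus the mean of the 9 libraries, in log2 units, for the tested priming, committed, other early lymphoid, pre-B and B cell receptor and mature B cell genes (rows) in each library (columns), with colours capped at -3 and 3. Circulating libraries 2 and 3 are high for Cd79a, Ms4a1, Cd22 and Fcmr, and circulating library 1 is less so.

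Around the 9 genes, none of 15 other early lymphoid genes tested was called by limma in any comparison. At an unadjusted p under 0.05, 6 passed in circulating against endogenous, 1 in circulating against irradiated and 4 in irradiated against endogenous cells, beside the 26.7%, 11.4% and 14.9% of all genes. Limma-voom called 0 of the 15 in each, beside 834, 8 and 94 of 13771 genes. The median difference of circulating from endogenous cells was -0.46, and that of all genes was -0.04. Flt3, the receptor that opens the lymphoid path, had 766, 377 and 342 in circulating, 416, 469 and 325 in irradiated and 642, 807 and 870.0 in endogenous libraries. Every endogenous library was above the irradiated ones, while circulating library 1 lay among the endogenous ones (-0.73 for circulating against endogenous, adjusted p = 0.109). Mef2c, a transcription factor of lymphoid priming, ran from 314 in irradiated library 3 to 589 in circulating library 1 (-0.07, adjusted p = 0.857). Cd27, a costimulatory receptor that also marks early progenitors, ran from 146 in circulating library 3 to 334 in endogenous library 2 (-0.49, adjusted p = 0.204).

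None of the 24 B lineage transcription regulators tested was called by limma in any comparison. At an unadjusted p under 0.05, 9 passed in circulating against endogenous, 4 in circulating against irradiated and 2 in irradiated against endogenous cells, beside the same shares of all genes (26.7%, 11.4% and 14.9%). Limma-voom called 0 of the 24 in each, beside 834, 8 and 94 of 13771 genes. Myb, needed by progenitors of many lineages, was the most abundant and ran from 365 to 582. Tcf4, an E protein, ran from 133 to 308, and Bcl11a, needed for the lymphoid lineages, from 96.4 to 174. Irf8, which acts in B cells and dendritic cells, had 82.7, 301 and 194 in circulating against 61.0, 50.1 and 99.0 in endogenous libraries (1.32, adjusted p = 0.0612).

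Of 17 genes for the pre-B and B cell receptors and their signalling, 1 (5.88%) rose and 1 fell in circulating against endogenous cells, with a median of 0.01. Of all genes, 5.33% were called higher and 3.3% lower there. Cd22, an inhibitory coreceptor, rose by 1.87 (adjusted p = 0.0452), from 2.54, 0.491 and 1.32 in endogenous to 2.77, 9.83 and 13.7 in circulating libraries, and kept its call in 3 of 17 alternatives. Leaving out any library but circulating 1 ended the calls of Cd22 and Dapp1. Dapp1, an adaptor downstream of the receptor, fell by 0.75 (adjusted p = 0.0357), from 916, 888 and 779 to 728, 471 and 384, and kept its call in 8 of 17. The main limma test called no gene of this list in the other comparisons. In irradiated against endogenous cells limma-voom called 1 of the 17, Pik3ap1, beside 94 of 13771 genes.

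For V(D)J recombination and end joining, 2 of 14 genes (14.3%) rose and 1 fell in circulating against endogenous cells, beside 5.33% and 3.3% of all genes. In irradiated against endogenous cells 2 of 14 (14.3%) rose, beside 0.472% of all genes. Those that rose in circulating cells were Hmgb2 and Hmgb1, abundant chromatin proteins that help the RAG recombinase bend DNA and have many other roles. Hmgb2 had 1788, 1615 and 1771 in circulating, 1411, 1358 and 1443 in irradiated and 879, 906 and 908 in endogenous libraries. The 3 groups of Hmgb2 did not overlap, and the differences from endogenous cells were 0.94 for circulating (adjusted p = 0.0011) and 0.65 for irradiated cells (adjusted p = 0.00998). Hmgb1 rose by 0.78 in circulating cells (adjusted p = 0.00629). Trp53bp1, which protects broken ends, fell by 0.82 (adjusted p = 0.0364), with 50.7, 64.8 and 53.8 in circulating and 93.2, 104 and 102 in endogenous libraries. Lig4, the ligase of end joining, rose in irradiated against endogenous cells by 2.07 (adjusted p = 0.0376), with 6.45, 6.04 and 6.29 in irradiated, 0.564, 0.639 and 1.02 in endogenous and 1.33, 0.0376 and 1.39 in circulating libraries. The call of Lig4 was lost on leaving out any irradiated or endogenous library, that of Trp53bp1 in 6 of 9 fits without 1 library, and that of Hmgb2 in irradiated cells in 4 of 9 (highest adjusted p = 0.0803). Hmgb1, Hmgb2, Trp53bp1 and Lig4 act in many cell types, and whether their changes concern recombination was not tested.

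Among 14 genes of interleukin 7 receptor signalling, 1 fell in circulating against endogenous cells, beside 3.3% of all genes, and the median was -0.21. The gene was Cish, a feedback inhibitor induced by cytokine receptors through STAT5. Its values were 2.21, 9.80 and 5.92 in circulating, 10.4, 14.8 and 13.2 in irradiated and 38.3, 24.4 and 24.9 in endogenous libraries. The 3 groups did not overlap, and circulating differed from endogenous cells by -2.25 (SE 0.42, adjusted p = 0.0128). For Il7r, too, every endogenous library was above every circulating one, but Il7r missed the threshold. A link between the 2 genes was not tested, and Cish is also induced by other cytokines. The call was lost without endogenous library 1 (adjusted p = 0.0591).

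Markers of other cells that a sort could hold were measured beside the committed genes. Of 9 tested mature B cell markers, which include Ms4a1, 2 (22.2%) rose in circulating against endogenous cells and none fell. The shares of all genes were 5.33% higher and 3.3% lower. The 2 were Cd22 and Fcmr, the receptor for IgM on B cells. Limma-voom called 0 of the 9 there, beside 834 of 13771 genes. By sign alone, 6 of the 9 were higher in circulating cells and 3 lower: Fcer2a (-0.40), Tnfrsf13c (-0.20) and Bank1 (-0.06). Fcmr had 5.36, 38.3 and 17.0 in circulating, 0.606, 0.712 and 0.0615 in irradiated and 0.0584, 0.0221 and 0.832 in endogenous libraries (3.72, adjusted p = 0.0077). Fcmr passed the filter only through the circulating libraries, so it had to differ. The summed value of the 10 mature B cell markers in the table was 195, 344 and 202 in circulating, 131, 120.5 and 105 in irradiated and 193, 148 and 159 in endogenous libraries. Cd37 was the largest part in every library, at 114, 129 and 93.0 in circulating and 109, 72.1 and 95.7 in endogenous libraries. Of the 10, 9 had their highest value in a circulating library, 6 of them in library 2. None of the marker genes in the deposited table was at 0 counts in every library. The listed markers Klk1, Cd209a, Themis, Tcf7, Ncr1, Gzma, Eomes and Tbx21 were not in it.

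The same libraries also held markers of cells outside the B lineage. Conventional dendritic cell markers summed to 1852, 5519 and 2117 in circulating, 1686, 1504 and 964 in irradiated and 1349, 1302 and 1365 in endogenous libraries. Most of each sum came from Flt3, given above as an early lymphoid gene, and from Cd74 and H2-Ab1. Flt3 had 642, 807 and 870.0 in endogenous libraries, where Xcr1 had 5.08, 3.82 and 8.68. In circulating library 2, Cd74 had 2869 and H2-Ab1 1754. Of the conventional dendritic cell markers, 8 of 9 were highest in circulating library 2. Of the 8 tested, 3 (37.5%) rose in circulating against endogenous cells, beside 5.33% of all genes (Xcr1 by 2.80, H2-Ab1 by 2.30 and Clec9a by 2.29). Leaving out 1 library ended the call of Xcr1 in 2 of 9 fits, of H2-Ab1 in 3 and of Clec9a in 7. Limma-voom called 1 of the 8, Xcr1, beside 834 of 13771 genes. T cell markers summed to 158 in circulating library 2 and to 37.4 to 75.5 in the other libraries. Cd8a was at 32.3 and Cd3g at 31.0 in circulating library 2, and 0 of 8 passed the test. Of the 8, 6 were higher and 2 lower in circulating than in endogenous cells. The 2 lower were Cd4 (-2.23, adjusted p = 0.0617), whose groups did not overlap, and Lat (-0.48, adjusted p = 0.302). Myeloid progenitor markers summed to 12981, 24608 and 39389 in circulating, 12209, 7720.2 and 16302 in irradiated and 3106, 2177 and 2332 in endogenous libraries, and 9 of 11 were highest in circulating library 3. Of 10 tested, 7 (70%) rose in circulating against endogenous cells, beside 5.33% of all genes, with Ms4a3 up by 3.72 and Elane by 3.68. In irradiated against endogenous cells 5 (50%) rose, beside 0.472% of all genes. Each of the 7 kept its call without any 1 library. The 5 calls in irradiated cells were each lost in 4 to 6 of 9 such fits. Limma-voom made 2 of them (Ms4a3 and Ctsg), beside 94 of 13771 genes.

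Plasma cell markers summed to 1071, 1666 and 1799.9 in circulating, 1526, 275 and 397 in irradiated and 778, 407 and 362 in endogenous libraries, and 0 of 8 passed. Their most abundant gene was Jchain, the joining chain of secreted antibody, at 839, 1334 and 1313 in circulating, 1054, 55.2 and 126 in irradiated and 472, 231 and 148 in endogenous libraries. All 3 circulating libraries were above the endogenous ones for Jchain (2.16, adjusted p = 0.249). Ighm, the heavy chain of IgM, ran from 581 in circulating library 2 to 22640.0 in irradiated library 1, and its order of libraries was unlike that of Cd79a. Markers of plasmacytoid dendritic cells, which share Dntt and Rag expression with early lymphoid cells, summed to 440.1 to 634. Of 9 tested, 1 rose (Lair1, 0.79) and 1 fell (Runx2, -1.53) in circulating against endogenous cells, beside 5.33% and 3.3% of all genes. Limma-voom called 1 of the 9, Lair1, beside 834 of 13771 genes. Natural killer and innate lymphoid markers summed to 569.9 to 926 in circulating, 601 to 704 in irradiated and 287 to 360.2 in endogenous libraries. Most of each sum was Nkg7, at 513, 662 and 896 in circulating and 228, 275 and 220 in endogenous libraries. Of 8 tested, only Nkg7 rose in circulating (1.48) and in irradiated cells (1.27) against endogenous ones. By sign alone, 3 of the 8 were higher and 5 lower in circulating than in endogenous cells, with a median of -0.23. The lower ones included Rora (-2.025, adjusted p = 0.0528), whose groups did not overlap. In irradiated against endogenous cells, 4 were higher and 4 lower. Leaving out 1 library ended the call of Lair1 in 6 of 9 fits, of Runx2 in 8 and of Nkg7 in irradiated cells in 6. The part of other cells in the Cd79a difference was not tested.

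**Figure D4:**
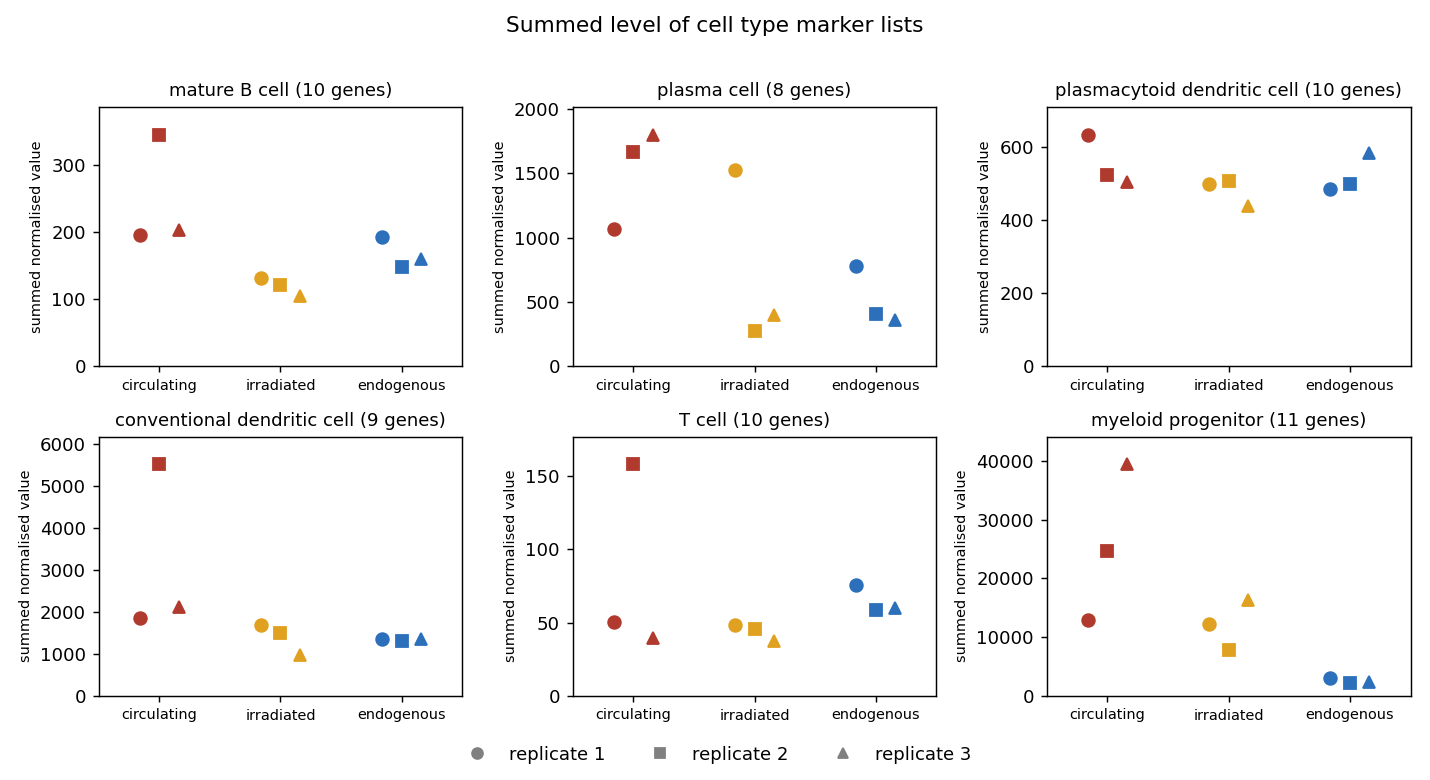
Summed normalised value of 6 marker lists in each of the 9 libraries, by group. Mature B cell, conventional dendritic cell and T cell markers peak in circulating library 2, and myeloid progenitor markers in circulating library 3.

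Genes whose pattern over the 9 libraries was most like that of the leading priming and committed genes were sought among 10367 genes, by Pearson's r of log2(value + 1). For Dntt they were Trex1 (0.932), Il12a (0.926), Foxo1 (0.900), Jakmip1 (0.897) and Rbm39 (0.892). For Cd79b they were Dot1l (0.947), H2-DMb2 (0.943), Ms4a1 (0.941), Rassf4 (0.935) and Tmem128 (0.929). Among the 9 genes themselves, r was 0.834 for Cd79a with Ms4a1, 0.832 for Cd79a with Cd79b, 0.581 for Dntt with Il7r and -0.573 for Cd79a with Il7r. These values are a description of 9 libraries, and the 2 genes of each pair share the library, its depth and its group.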

How the data were processed

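RNA was sequenced from 9 libraries of sorted bone marrow LSK cells. Per the labels' protocols, cDNA was made with SMART-Seq v4 and libraries with Nextera XT, which does not mark strand. RSEM 1.3.1, CASAVA, the build mm10 and limma are listed in the submitters' processing notes, without saying what each was used for. The deposited values are a normalised signal, not counts: each is an estimated count plus 0.5, multiplied by a constant of its library (100% of values, tolerance 0.001 of a step), so the authors' scaling sets all levels. How they scaled is not given in the sources used here. Symbols were matched by Ensembl ID to GENCODE M21 (14405 matched, 56 not).

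The test was limma-trend with robust moderation (limma 3.58.1, R 4.3.3) on log2(value + 1), which understates changes of low genes, with all 9 libraries in one fit. Genes with a value of at least 1 in at least 3 libraries were tested. The code was tested on simulated data. The members and lists were chosen with earlier results of these data known. Named genes are the 9 members, the called genes of each list (at most 6, or 4 for a marker list, by size), otherwise its most abundant genes, and the gate's genes. T cell genes, Rag2, Igll1, Jchain and Ighm were named after their values were seen. Some genes of the lists are not reported here.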

Additional observations from a re-analysis of the deposited data

How the results depend on the processing

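Over 17 alternatives each, circulating against endogenous cells kept 1 of the 7 genes, Cd79a, in 10. The count of members was 0 with sample weights, with only the 2 groups fitted and with limma-voom, and 0 to 4 on leaving out 1 library. The count of all genes called (1189) was 494 with sample weights, 239 with only the 2 groups and 262 to 2230 on leaving out 1 library. Scaling by library size alone put the median gene at -0.22 and gave 339 higher and 817 lower. The deposited scaling put it at -0.04 and gave 734 and 455. For circulating against irradiated cells (4 genes, 0 members) the counts were 11 with library size scaling, 8 with limma-voom, 9 with the replicate block, and 3 to 134 genes and 0 to 1 members on leaving out 1 library. For irradiated against endogenous cells (83 genes, 0 members) they were 897 with sample weights, 757 genes and 1 member (Vpreb1, adjusted p = 0.0471) with only the 2 groups, and 6 to 265 on leaving out 1 library. The causes were not tested.

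On leaving out 1 library, the log2 difference turned sign for Vpreb1 (-0.27 to 1.64 in circulating against endogenous, -1.51 to 0.39 against irradiated), Il7r (-1.52 to 0.63), Dntt (-0.19 to 0.54) and Ebf1 (-0.008 to 0.67) in circulating against irradiated, and Ebf1 (-0.13 to 0.55) in irradiated against endogenous cells. Vpreb1 was also at -1.31 with limma-voom in circulating against endogenous cells. None of these was called with all libraries.

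In their titles, same-numbered circulating and irradiated libraries carry a shared code, and the labels do not say whether it marks a shared animal or pair. Same-numbered libraries' deviations correlated at 0.05, 0.031 and 0.182 for these, and at -0.023 to 0.182 over all groups. Libraries of different number and group correlated at -0.167 to 0.106. The replicate block was therefore kept as an alternative. Endogenous titles carry another code, so for them the block follows the number alone. With the replicate as a block, 1147, 9 and 105 genes and 1, 0 and 0 members were called in circulating against endogenous, circulating against irradiated and irradiated against endogenous cells.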
